A study of Mus musculus with 11 samples.

Results

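Intact and vesicle-depleted young serum were compared in aged mouse tibialis anterior, the shin muscle that lifts the foot and consists mainly of fast fibres. The comparison uses 7 of the 11 RNA libraries of the study. In 4 of them the C57BL/6 mice, aged 21 to 24 months, had been injected with young serum (called intact serum here). In the other 3, mice of the same strain and age had received young serum from which extracellular vesicles (EVs) had been depleted. The remaining 4 libraries, from mice of that strain and age given saline, entered no fit reported here apart from 1 alternative over all 11 libraries, and are quoted as the level without serum. The labels refer to an injury model without saying how or when each muscle was injured, and they give no sex, dose, injection schedule or hour of collection. Nothing in them says that the libraries are from different animals, and p-values therefore measure only the spread between these samples, which may be technical. The design asks what removing EVs from young serum does to gene expression in aged muscle.

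EVs are membrane-bound particles that cells release into body fluids, and they carry proteins, lipids and RNA between tissues. Serum also holds free hormones, growth factors and lipoproteins, so depleting it of EVs leaves a complex mixture behind. Skeletal muscle fibres are classed by their myosin: slow fibres use Myh7 and are rich in mitochondria, whereas the fast fibres that fill most of this muscle use Myh4. Loaded fibres also express chaperones and proteins of the Z-disc, the plate that anchors the contractile filaments, and those genes respond to stretch and damage.

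Levels are given as CPM, a gene's reads per 1e+06 reads of its library, as scaled by the authors. Depth, read from the step that a single read makes among low values, was 36.4 to 41.2 times 1e+06 reads in the 7 libraries. The table lists 18269 genes, of which 12823 reached at least 1 CPM in at least 3 of the 7 libraries and were tested. Differences are on the log2(CPM + 1) scale, intact over EV-depleted serum, which understates the change of low genes. Where a value is given for every library, EV-depleted replicates 2, 3 and 4 come first and intact replicates 1, 2, 3 and 4 second, each in that order. The first principal component took 44.1% of the variance and set EV-depleted replicate 3 (-34.9) and EV-depleted replicate 4 (29.7) at opposite ends, with the 4 intact libraries between -7.13 and 10.9. The same pair stood apart by transcript length: the 1262 genes of greatest exon length averaged -0.365 in EV-depleted replicate 3 and 0.343 in EV-depleted replicate 4 on the centred log2 scale, against -0.085 to 0.098 in the other 5 libraries.

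No gene passed. limma, a linear model with moderated variances, called 0 of 12823 genes (0%) at a Benjamini-Hochberg adjusted p under 0.05, and the smallest adjusted p was 0.516. At an unadjusted p under 0.05 there were 626 genes, beside the 641 that chance alone would give. They were uneven in direction, with 185 higher (1.44% of all tested) and 441 lower (3.44%) with intact serum. All 4 intact libraries lay above all 3 EV-depleted ones for 251 genes (1.96%) and below them for 534 (4.16%). Over all tested genes the median log2 difference was -0.0044, and 51.2% of genes were lower with intact serum. The 95% interval of a gene's log2 difference, before any adjustment, had a median half-width of 0.34, or 1.27-fold. Smaller differences were thus mostly not detectable with these libraries, even before adjustment over all genes. Larger ones could also fail after it: Igfn1, 3.11-fold lower with intact serum by the point estimate, had an adjusted p of 0.516 in limma. With a weight estimated for each library, limma called 2324 genes, but it gave EV-depleted replicate 2 a weight of 37.4 and the other 6 libraries 0.175 to 1.23, so that the EV-depleted mean came almost wholly from 1 library, and the estimate stopped before convergence. The EV-depleted group was the more variable, its median SD being 0.22 and that of the intact group 0.15 (log2 scale).

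**Figure D1:**
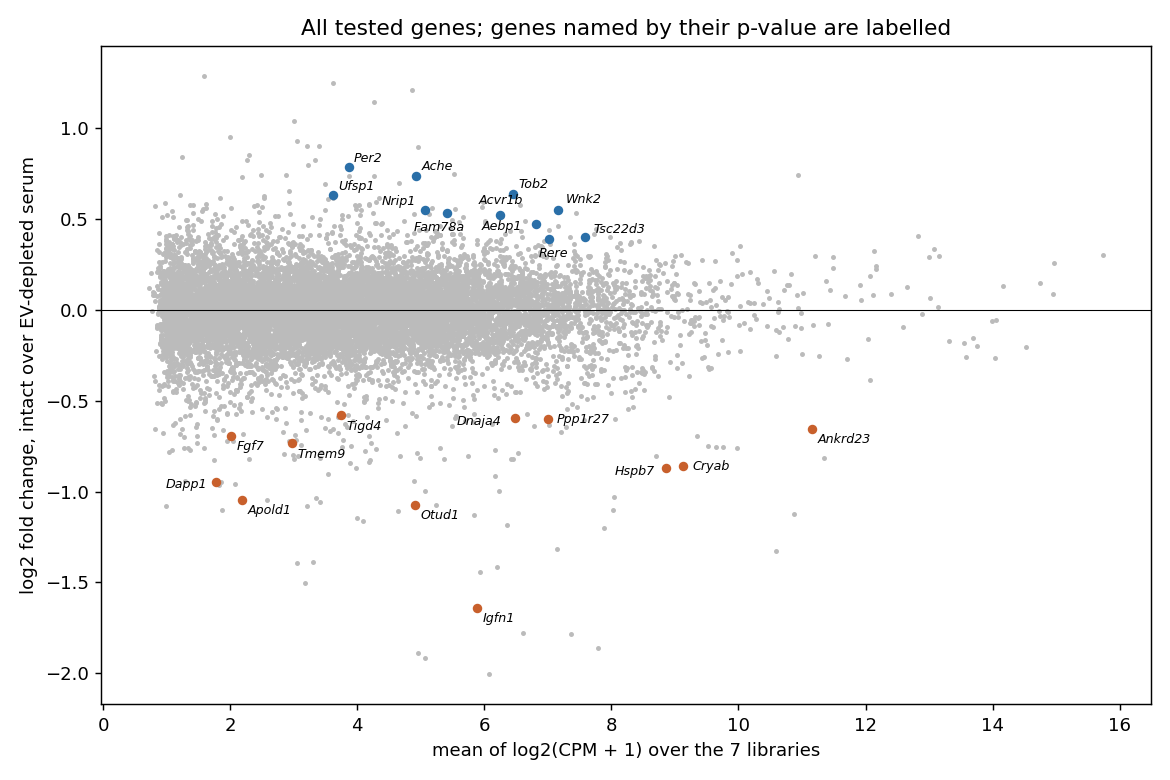
Each point is a tested gene, with its mean log2(CPM + 1) over the 7 libraries on the horizontal axis and its log2 fold change, intact over EV-depleted serum, on the vertical axis. Labelled are 23 of the genes with the smallest p (blue, 11 higher with intact serum; orange, 12 lower); none passed adjustment, and Igfn1 lies lowest of the labelled genes at -1.64.

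The genes described first are 23 of those with the smallest p, 12 lower and 11 higher with intact serum, predicted genes left out, and none passed. For every one of them the 2 groups did not overlap, which counts among the 1.96% and 4.16% above. The 12 lower were Igfn1, Apold1, Hspb7, Tigd4, Tmem9, Dnaja4, Ppp1r27, Cryab, Otud1, Dapp1, Ankrd23 and Fgf7. The 11 higher were Ache, Tob2, Acvr1b, Wnk2, Fam78a, Rere, Ufsp1, Nrip1, Tsc22d3, Per2 and Aebp1.

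Igfn1 had the smallest p of all tested genes. It encodes a large skeletal muscle protein of the Z-disc, built of immunoglobulin and fibronectin domains. It stood at 162, 107 and 82.1 CPM with EV-depleted serum and at 31.0, 32.1, 50.0 and 31.8 CPM with intact serum. The lowest EV-depleted library was thus above the highest intact one. Saline gave 7.94 to 27.4 CPM, below both sera. The means were 117 ± 41.1 CPM (SD, n = 3) and 36.2 ± 9.21 CPM (SD, n = 4), a log2 difference of -1.64 ± 0.24 (SE), or 3.11-fold lower with intact serum by the point estimate. In limma its adjusted p was 0.516. It lies on mm10 chromosome 1 from 135953578 to 136006342, minus strand, and Tmem9, a lysosomal membrane protein gene also among the 12, is its neighbour from 136008150 to 136035342 on the plus strand. The sources used here do not say whether counting used strand.

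Otud1, a deubiquitinase, stood at 60.3, 51.0 and 29.1 CPM with EV-depleted serum and at 20.1, 23.5, 17.9 and 22 CPM with intact serum. EV-depleted replicate 4 was the nearest to the intact range, and saline lay lower still at 10 to 16.8 CPM. The log2 difference was -1.07 ± 0.22 (SE), with an adjusted p of 0.830 in limma. Without EV-depleted replicate 4 it was -1.38 with an adjusted p of 0.0341 in limma, the one gene called when that library was left out.

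Ankrd23, a stretch-responsive ankyrin repeat protein of the sarcomere, was abundant. It measured 3436, 2603 and 2932 CPM with EV-depleted serum against 1709, 2023, 2195 and 1680 CPM with intact serum, beside 1349 to 2403 CPM in saline. Its relative Ankrd2, likewise stretch-responsive and also a slow fibre marker, stood at 157, 171 and 81.7 CPM against 40.5, 69.5, 69.4 and 52.7 CPM (-1.18 ± 0.27, SE). In both genes the groups did not overlap. Ankrd23 overlaps the predicted gene Gm42417, so its reads may be shared.

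Of the 20 strain and myotendinous junction genes tested, 19 had a lower mean with intact serum and 9 of them had an unadjusted p under 0.05 (3.44% of all tested genes were lower at that level); none passed over all genes. The median log2 difference was -0.25, beside -0.0044 over all tested genes. The members ranged from Igfn1 at -1.64 to Cilp, a cartilage and tendon matrix protein, at 0.09. Some members had been seen to differ in these data when the list was written, so the count is no independent evidence of its direction. The mean level of the list, centred over the 7 libraries, was 0.41, 0.14 and 0.23 with EV-depleted serum and -0.21, -0.23, -0.11 and -0.22 with intact serum. The groups did not overlap, and EV-depleted replicate 2 was highest. On the authors' TPM values, which are scaled by gene span, the median was -0.04, with Igfn1 at -0.86 and Otud1 at -0.90. Those differences are of log2(TPM + 1), which understates the change where TPM is low, as in genes of long span.

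**Figure D2:**
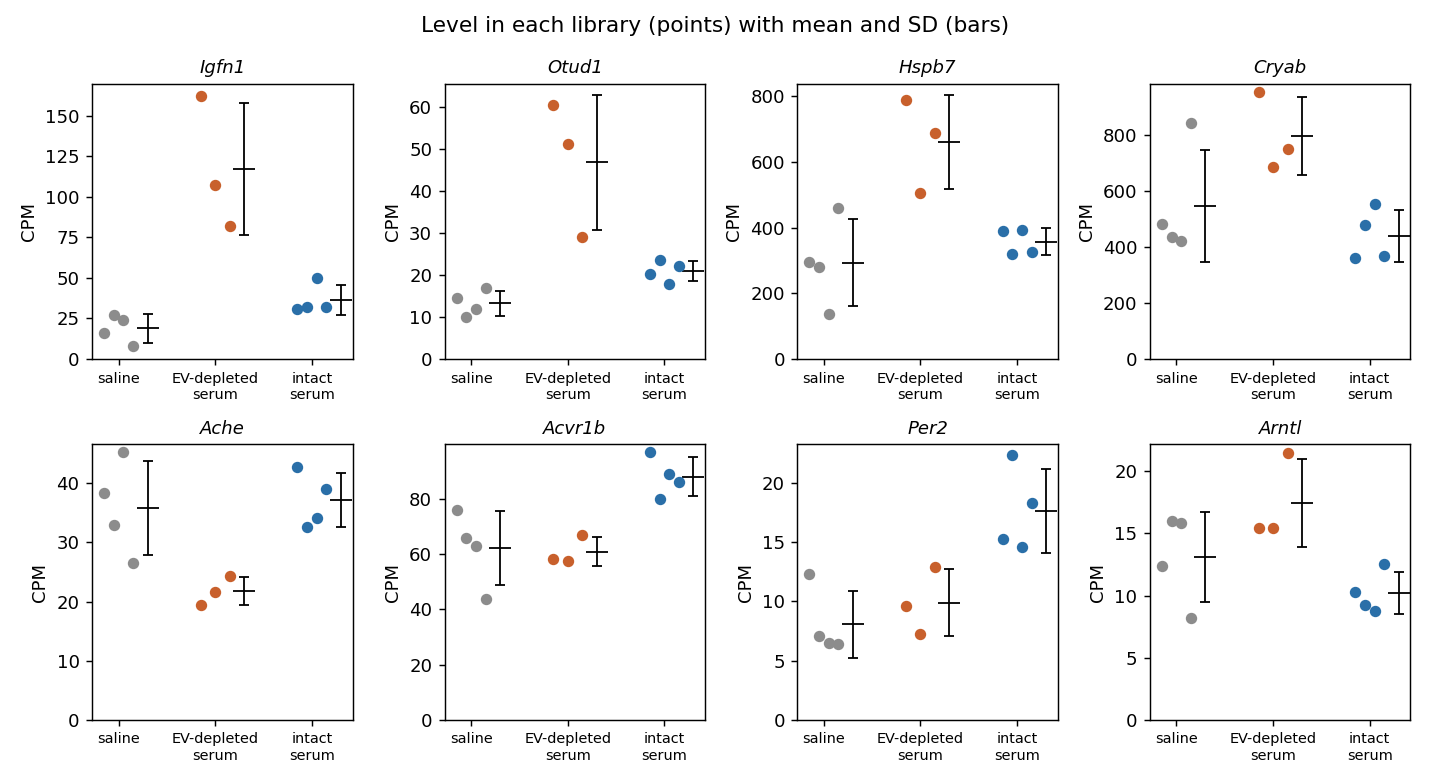
CPM of 8 genes in each library (points; the vertical axis starts at 0), with the group mean and SD beside them, for saline (n = 4), EV-depleted serum (n = 3) and intact serum (n = 4). Igfn1, Otud1, Hspb7, Cryab and Arntl are higher in all 3 EV-depleted libraries than in all 4 intact ones, and Ache, Acvr1b and Per2 are lower.

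Chaperones of the muscle fibre formed the next group. Hspb7, a small heat shock protein of heart and muscle, stood at 790, 506 and 689 CPM with EV-depleted serum and at 391, 320, 394 and 327 CPM with intact serum. Every EV-depleted library was above every intact one, and 3 of the 4 saline libraries (136 to 461 CPM in all) lay below the lowest intact value. The log2 difference was -0.87 ± 0.16 (SE; adjusted p = 0.819 in limma).

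Cryab, the crystallin that protects desmin and actin filaments, stood at 953, 684 and 750 CPM against 360, 479, 554 and 367 CPM, beside 421 to 842 CPM in saline. Its log2 difference was -0.86 ± 0.18 (SE), and saline replicate 6 reached the EV-depleted range. Dnaja4, an HSP40 co-chaperone, stood at 123, 94.6 and 120 CPM against 70.6, 73.9, 81.9 and 69.1 CPM. Its intact libraries were close together, with an SD of 5.72 CPM, and all lay below the EV-depleted ones. Hspb2 overlaps Cryab on the opposite strand and differed by -0.39 ± 0.13 (SE), and Dnaja4 overlaps Wdr61, so reads could have been shared in both cases.

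The differences did not extend evenly over the chaperones. Of 27 heat shock genes tested, 25 had a lower mean with intact serum (51.2% of all tested genes did) and 7 had an unadjusted p under 0.05 (3.44% of all tested), with a median log2 difference of -0.15. Hspa5, the chaperone of the endoplasmic reticulum, stood at 0.01, and Hsf1, the transcription factor of the heat shock response, at 0.10. The list level was 0.17, 0.04 and 0.18 with EV-depleted serum and -0.04, -0.08, -0.05 and -0.23 with intact serum. On the log2(TPM + 1) scale the median was -0.03, with Hspb7 at -0.74 and Cryab at -0.73.

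Immediate early genes, which fibres and resident cells switch on within minutes of a stimulus, were lower by mean in 16 of 21, with 3 at an unadjusted p under 0.05 (3.44% of all tested genes) and a median of -0.19, or -0.10 without EV-depleted replicate 2. Atf3, a stress-induced transcription factor, stood at 7.28, 8.64 and 12 CPM with EV-depleted serum and at 6.14, 4.93, 4.17 and 5.47 CPM with intact serum. Fos, the classic member, stood at 87.3 CPM in EV-depleted replicate 2 and at 5.81 and 7.30 CPM in the other 2, against 2.33 to 11.6 CPM with intact serum. Its difference of -1.39 ± 0.81 (SE) became -0.20 without that replicate. Apold1, an endothelial early-response gene, did not depend on 1 library in this way: it stood at 4.57, 7.09 and 6.31 CPM against 2.47, 2.5, 2.14 and 2.27 CPM (-1.05 ± 0.16, SE), beside 1.24 to 4.66 CPM in saline.

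Slow fibre and oxidative genes were also lower with intact serum by mean, but the intact libraries differed widely among themselves. Myh7, the slow myosin, stood at 340, 563 and 512 CPM with EV-depleted serum and at 111, 192, 523 and 22 CPM with intact serum. Intact replicate 3 lay inside the EV-depleted range, and intact replicate 4 was the lowest of all. The log2 difference was -1.86 with a 95% interval of -3.73 to 0.01. In saline Myh7 ranged from 43.2 to 944 CPM, so its level varied as widely without serum. Myl3, the slow myosin light chain, stood at 273, 478 and 283 CPM against 43.1, 140, 219 and 63.0 CPM. Of 17 slow fibre genes, 16 had a lower mean and 11 an unadjusted p under 0.05, beside 3.44% of all tested genes, with a median of -1.20. Without intact replicate 4 the difference of Myh7 was -1.04.

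The slow fibre level, the mean of those 17 genes centred over the 7 libraries, was 0.62, 0.96 and 0.55 with EV-depleted serum. With intact serum it was -0.89, -0.26, 0.59 and -1.58. In bulk muscle, fewer slow fibres and less slow fibre RNA per fibre cannot be told apart. Fast fibre genes stood closer to 0, with a median of 0.08 over 16 genes. Myh4, the myosin of the fastest fibres, measured 49590, 42328 and 53896 CPM against 57577, 60619, 52515 and 69181 CPM (0.30 ± 0.18, SE), and the groups overlapped. Myh2, the myosin of the oxidative fast fibres, stood at 3157, 2737 and 2024 CPM against 388, 2060, 1814 and 790 CPM (-1.33 ± 0.51, SE), with intact replicates 1 and 4 lowest. Myh1 split in the same way within the intact group, at 1274, 3366, 3662 and 1094 CPM against 3434 to 3730 CPM with EV-depleted serum.

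**Figure D3:**
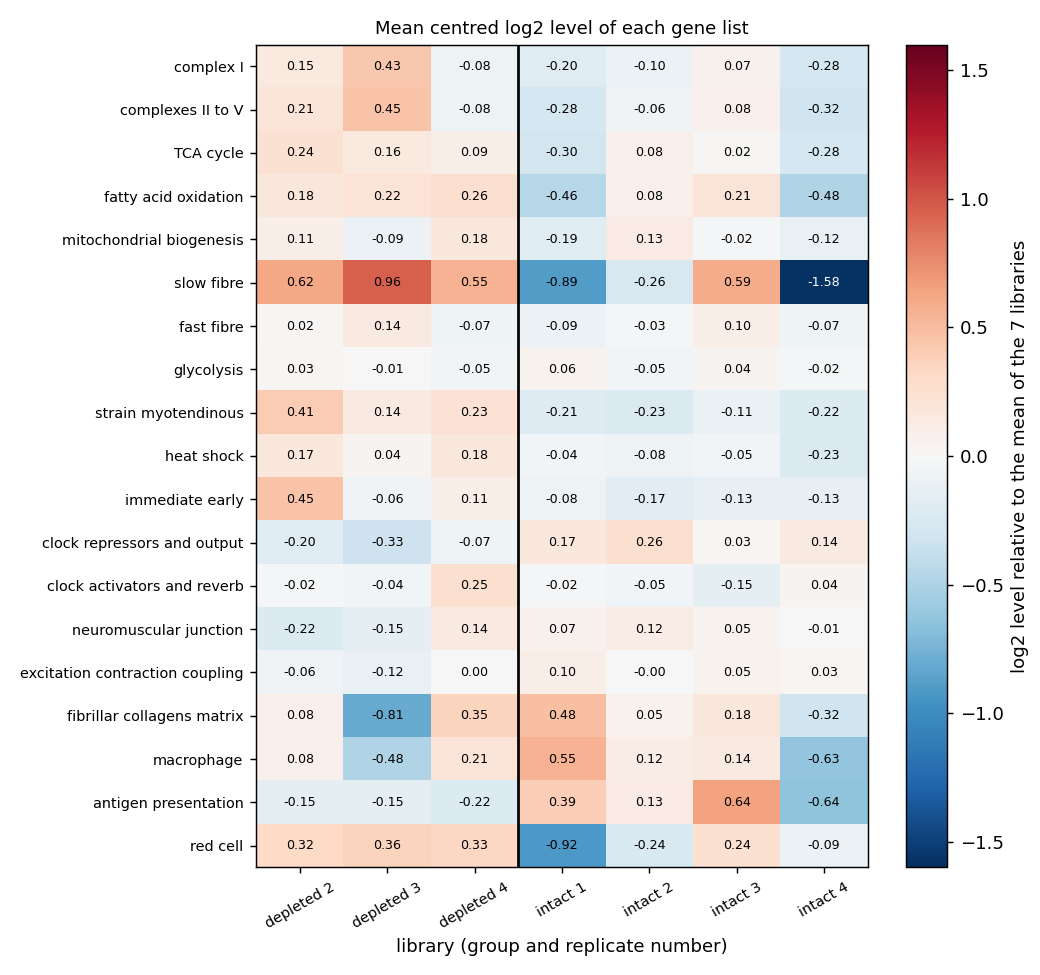
Mean centred log2 level of each gene list (rows) in each of the 7 libraries (columns; EV-depleted left of the black line, intact right of it), with the value printed in each cell. The slow fibre row runs from 0.96 in EV-depleted replicate 3 to -1.58 in intact replicate 4, and the oxidative rows are lowest in intact replicates 1 and 4.

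Nuclear genes of the respiratory chain were lower by mean throughout: complex I in 37 of 37 (median -0.31, 17 at an unadjusted p under 0.05) and complexes II to V in 40 of 40 (median -0.32, 19). Over all tested genes 51.2% were lower by mean and 3.44% were lower at that p. None passed over all genes. Ndufab1, the acyl carrier subunit of complex I, stood at 56.4, 70.4 and 56.8 CPM with EV-depleted serum and at 41.1, 44.8, 51.2 and 35.8 CPM with intact serum. Cox7a1, the muscle form of a complex IV subunit, stood at 165, 224 and 220 CPM against 121, 135, 151 and 110 CPM (-0.65 ± 0.15, SE). The complex I level was 0.15, 0.43 and -0.08 in the EV-depleted libraries and -0.20, -0.10, 0.07 and -0.28 in the intact ones, so the groups overlapped. Without EV-depleted replicate 3, the highest, the median was -0.20.

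The tricarboxylic acid cycle (18 of 18 lower by mean, median -0.23, 8 at an unadjusted p under 0.05) and fatty acid oxidation (26 of 28, median -0.41, 15) followed the same direction. Acadm, the medium-chain dehydrogenase of fatty acid oxidation, was even with EV-depleted serum at 374, 372 and 387 CPM. With intact serum it stood at 213, 306, 319 and 217 CPM, lowest in replicates 1 and 4, and saline gave 243 to 338 CPM. The pyruvate dehydrogenase subunit Pdhb differed by -0.34 ± 0.11 (SE). Regulators of mitochondrial number had a median nearer to 0, at -0.05 over 23 genes. Of these, 16 were lower and 7 higher by mean. At an unadjusted p under 0.05, 4 were lower, beside 3.44% of all tested genes. Ppargc1a, the coactivator of mitochondrial biogenesis, stood at -0.03 ± 0.16 (SE), and Tfam, the mitochondrial DNA factor, at -0.17 ± 0.10 (SE). Esrrg, a nuclear receptor that drives oxidative genes in slow fibres, stood lower at -0.77 ± 0.26 (SE).

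The oxidative lists were lowest in intact replicates 1 and 4, the same libraries in which the slow fibre level was lowest. With that level as a covariate in the model, the medians were -0.05 (complex I), -0.07 (complexes II to V), -0.07 (tricarboxylic acid cycle) and -0.01 (fatty acid oxidation). The strain list stood at -0.35, heat shock at -0.14, immediate early at -0.21 and the clock repressors at 0.27 in the same fit. Of the single genes, Igfn1 stood at -1.29, Otud1 at -1.14 and Ankrd2 at -0.78. Ankrd2 is itself a member of the slow fibre list, so its value in this fit is partly set by construction. Hspb7 stood at -0.83, Dnaja4 at -0.50, Cryab at -0.53 and Hspb2 at -0.19. Of the clock genes, Per2 stood at 0.63, Hlf at 0.27 and Arntl at -1.01. Some other medians grew with the covariate: antigen presentation went from 0.45 to 1.22 and the interferon-induced genes from 0.14 to 0.64. Myh1 changed sign, from -0.82 to 0.28. The slow fibre level itself differs between the groups, so this fit cannot tell a serum effect on fibre genes from muscles that differed beforehand.

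Glycolysis genes had a median of 0.10 over 22 genes, with 1 higher and 1 lower at an unadjusted p under 0.05 (1.44% and 3.44% of all tested genes). Gpd1, the cytosolic glycerol phosphate dehydrogenase, was higher at 696 to 800 CPM with intact serum against 567 to 674 CPM (0.28 ± 0.10, SE). Ldhb, the lactate dehydrogenase subunit of oxidative fibres, was lower at 43.9 to 180 CPM against 204 to 273 CPM (-1.32 ± 0.45, SE).

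**Figure D4:**
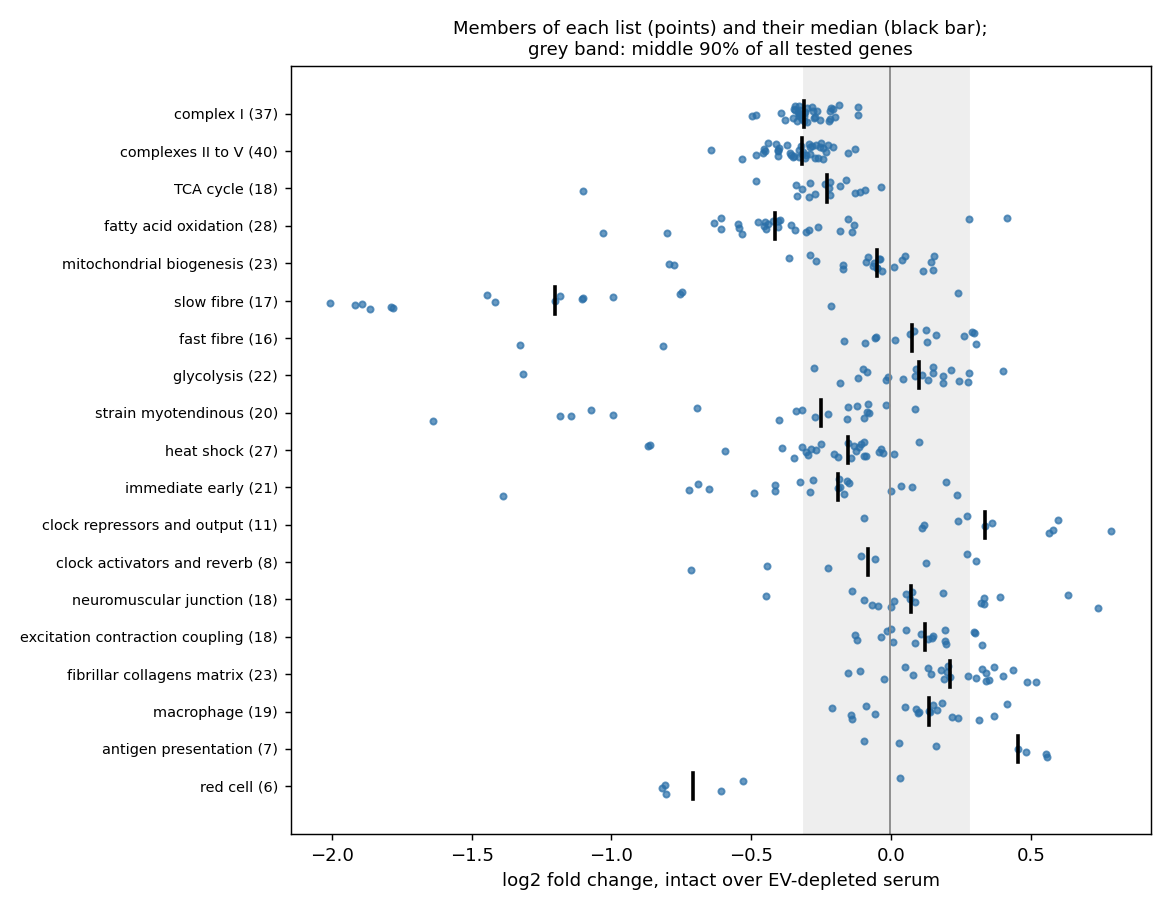
Log2 fold change, intact over EV-depleted serum, of each tested member (points) of 19 gene lists, with the number of members in brackets, the list median as a black bar and the middle 90% of all tested genes as a grey band. The slow fibre median lies farthest to the left at -1.20. The antigen presentation median at 0.45 and the clock repressor and output median at 0.34 lie right of the band.

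On the higher side, the gene with the smallest p was Ache. It encodes acetylcholinesterase, which ends transmission at the neuromuscular junction. It stood at 19.5, 21.7 and 24.3 CPM with EV-depleted serum and at 42.7, 32.7, 34.2 and 39.0 CPM with intact serum. Saline gave 26.6 to 45.3 CPM, so the intact group lay within the saline range and the EV-depleted group below it. The means were 21.8 ± 2.37 CPM (SD, n = 3) and 37.1 ± 4.56 CPM (SD, n = 4), a log2 difference of 0.74 ± 0.13 (SE; adjusted p = 0.819 in limma).

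Ufsp1, a protease of the ubiquitin-like modifier UFM1, lies next to Ache on mm10 chromosome 5, from 137294629 to 137295665 against 137287519 to 137294466 for Ache, both on the plus strand. It stood at 6.66, 10.4 and 8.84 CPM against 14.2, 13.6, 12.5 and 14.7 CPM, beside 16.3 to 20.3 CPM in saline. With both genes on 1 strand and end to end, reads that run past Ache could be counted for Ufsp1, which was not tested. Ache and Ufsp1 were the 2 of 18 neuromuscular junction genes with an unadjusted p under 0.05 (1.44% of all tested genes were higher at that level). The list median was 0.07, with the acetylcholine receptor subunit Chrna1 at 0.00 and Chrne, the adult subunit, at 0.33 ± 0.23 (SE).

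Growth signalling genes were also among the 11 higher. Acvr1b, the type I activin receptor ALK4 through which myostatin signals, stood at 58.3, 57.4 and 66.8 CPM with EV-depleted serum and at 97.0, 79.8, 88.9 and 86.1 CPM with intact serum (0.52 ± 0.10, SE). Saline gave 43.8 to 75.9 CPM, below the intact group in all 4 libraries. Tob2, an antiproliferative regulator of mRNA decay, stood at 64.7, 61.3 and 75.1 CPM against 104, 124, 98.3 and 94.5 CPM, beside 34.5 to 71.2 CPM in saline. For both genes each intact library was above every saline and EV-depleted library. Of 24 genes of the TGF-beta, myostatin and insulin-like growth factor pathways, 19 had a higher mean, whereas 51.2% of all tested genes had a lower one. At an unadjusted p under 0.05, 2 were higher and 1 lower (1.44% and 3.44% of all tested genes). The list median was 0.13, and 0.00 without EV-depleted replicate 3. Fst, the secreted inhibitor of myostatin and activin, was lower at -0.52 ± 0.21 (SE).

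Tsc22d3, a glucocorticoid-induced regulator, stood at 142, 173 and 174 CPM with EV-depleted serum and at 214, 227, 214 and 203 CPM with intact serum, beside 153 to 182 CPM in saline. Ddit4, an inhibitor of mTOR that glucocorticoids also induce, stood at 5.57 to 7.18 CPM against 7.39 to 22.5 CPM. In the list of denervation and atrophy genes that holds both, the median was 0.09. At an unadjusted p under 0.05, 2 of 20 were higher and 1 lower (1.44% and 3.44% of all tested genes). The kinase gene Wnk2 stood at 112, 112 and 120 CPM with EV-depleted serum and at 168, 181, 134 and 197 CPM with intact serum (0.55 ± 0.13, SE).

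Among genes of the circadian clock, 6 repressor and output genes were higher with intact serum at an unadjusted p under 0.05. At that level 2 of the other clock genes, Arntl and Nr1d1, were lower, and none passed. Over all tested genes 1.44% were higher and 3.44% lower at that level. In the clock loop the activators Arntl (BMAL1) and Clock, or its relative Npas2, bind E-box motifs and switch on the Per and Cry repressors and output factors such as Dbp and Hlf. Per2, a repressor, stood at 9.59, 7.21 and 12.9 CPM with EV-depleted serum and at 15.3, 22.4, 14.6 and 18.3 CPM with intact serum, beside 6.36 to 12.3 CPM in saline. The log2 difference was 0.79 ± 0.20 (SE; adjusted p = 0.994 in limma). Hlf, an output factor, stood at 13, 13.3 and 17.4 CPM against 20.4, 25.8, 16.9 and 27.7 CPM, intact replicate 3 lying below EV-depleted replicate 4.

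Arntl stood at 15.4, 15.4 and 21.5 CPM with EV-depleted serum and at 10.3, 9.23, 8.73 and 12.5 CPM with intact serum (-0.71 ± 0.16, SE; adjusted p = 0.974 in limma). Nr1d1 (REV-ERB alpha), which represses Arntl, was lower too, at 200, 187 and 179 CPM against 139, 105, 150 and 166 CPM. Nr1d1 overlaps Thra on the opposite strand. Npas2 was below the level needed for the model, at 1.17, 0.83 and 1.24 CPM against 0.382, 0.275, 0.469 and 0.485 CPM (two-sided exact permutation p = 0.0286, unadjusted, the smallest that 4 against 3 libraries allow).

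Of the 11 repressor and output genes, 10 had a higher mean with intact serum and 6 had an unadjusted p under 0.05 (1.44% of all tested genes were higher at that level), with a median of 0.34. The list level was -0.20, -0.33 and -0.07 with EV-depleted serum and 0.17, 0.26, 0.03 and 0.14 with intact serum. The 8 activators and nuclear receptors had a median of -0.08, with 5 lower and 3 higher by mean. At an unadjusted p under 0.05 there were 2, both lower (3.44% of all tested genes were lower at that level). These genes were known to differ in these data when the lists were split. The hour of collection is not given, so a difference in hour between groups cannot be told apart from an effect of EVs. On the log2(TPM + 1) scale the repressor and output median was 0.23, with Per2 at 0.23 and Arntl at -0.08. That scale understates the change of genes with low TPM.

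The repressor and output genes whose start region holds the E-box are shown because the activators bind that motif. The sequences are the 250 bases before the RefSeq start of each gene (GRCm38.p6), 5′ to 3′ on the gene's strand, with the E-box CACGTG in capitals. Windows of 300 bases, from 250 before to 50 after the start, were on hand for 9 of the 11 genes. Of these genes, 4 held the motif in any of their windows. Over all 32851 windows 7.15% did. That share is per window and not per gene, and a gene can have several starts, so the figures are not directly comparable. The motif reads the same on both strands. Tef has another start with the motif, which is not printed.
Per1 (chr11:69098699-69098948, plus strand): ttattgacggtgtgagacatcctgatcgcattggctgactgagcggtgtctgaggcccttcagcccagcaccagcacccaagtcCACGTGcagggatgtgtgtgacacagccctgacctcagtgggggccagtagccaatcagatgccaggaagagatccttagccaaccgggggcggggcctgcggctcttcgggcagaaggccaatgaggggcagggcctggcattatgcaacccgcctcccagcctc
Cry1 (chr10:85185055-85185304, minus strand): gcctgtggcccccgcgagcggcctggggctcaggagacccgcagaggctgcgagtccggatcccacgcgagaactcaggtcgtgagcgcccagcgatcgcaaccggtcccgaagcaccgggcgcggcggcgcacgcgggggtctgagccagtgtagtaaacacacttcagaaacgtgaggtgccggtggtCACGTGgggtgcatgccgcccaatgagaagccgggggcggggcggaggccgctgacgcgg
Ciart (chr3:95882229-95882478, minus strand): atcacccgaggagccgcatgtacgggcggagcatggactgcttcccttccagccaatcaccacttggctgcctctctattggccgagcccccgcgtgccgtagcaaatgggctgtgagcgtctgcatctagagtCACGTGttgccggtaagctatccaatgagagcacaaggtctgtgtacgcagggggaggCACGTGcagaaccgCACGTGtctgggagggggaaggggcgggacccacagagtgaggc
Tef (chr15:81811164-81811413, plus strand): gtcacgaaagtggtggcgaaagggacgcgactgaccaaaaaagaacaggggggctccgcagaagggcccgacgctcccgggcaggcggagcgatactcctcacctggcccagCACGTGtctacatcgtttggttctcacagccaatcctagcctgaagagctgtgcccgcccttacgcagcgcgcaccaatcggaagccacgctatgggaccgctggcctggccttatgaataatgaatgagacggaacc

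Ciart, a transcriptional repressor of the loop, carries the motif 3 times in this window, at 116, 58 and 44 bases before the start. It differed by 0.12 ± 0.16 (SE). Cry1, a repressor that partners the Per proteins, differed by 0.11 ± 0.15, and Tef, an output factor related to Hlf, by 0.24 ± 0.13. Per1 stood at 22.8, 29.4 and 32.4 CPM with EV-depleted serum and at 34.5, 53.9, 52.7 and 30.7 CPM with intact serum (0.56 ± 0.22, SE), with intact replicate 4 inside the EV-depleted range. The number of motifs in the window thus did not order the 4 genes by their difference. The start regions of Hlf and Dbp held no E-box in the window, which says only that those letters are not there.

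Klotho, a hormone co-receptor linked to ageing and encoded by Kl, was scarce in this tissue. It stood at 0.0487, 0.130 and 0.259 CPM with EV-depleted serum and at 0.153, 0.192, 0.287 and 0.179 CPM with intact serum, beside 0.0755 to 0.378 CPM in saline (two-sided exact permutation p = 0.343). The groups overlapped, and a difference in Kl was not detectable at this depth. Among the fibroblast growth factor genes, Fgf7, a growth factor for epithelial cells, stood at 4.27, 4.15 and 4.50 CPM against 3.01, 2.42, 1.93 and 1.90 CPM (-0.69 ± 0.15, SE), and saline gave 1.39 to 2.59 CPM. On the log2(TPM + 1) scale, which understates the change of genes with low TPM, the Fgf7 difference was -0.04. Fgf7 overlaps Fam227b, so its reads may be shared. Fgfr1, the receptor that Klotho partners, differed by 0.25 ± 0.14 (SE).

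Of 16 satellite cell and myogenic genes, 2 were higher and 2 lower at an unadjusted p under 0.05 (1.44% and 3.44% of all tested genes), and the median was 0.11, or -0.04 without EV-depleted replicate 3. Pax7, the satellite cell factor, differed by 0.12 ± 0.18 (SE) and Myog, a factor of myoblast differentiation, by -0.10 ± 0.22. Myod1, the myogenic determination factor, stood at 30.1, 32.7 and 26.4 CPM against 39.5, 40.0, 31.8 and 37.1 CPM (0.31 ± 0.12, SE). Itga7, the laminin receptor of fibres and satellite cells, was the satellite and myogenic gene with the smallest p, at 129, 104 and 123 CPM against 93.4, 93.6, 93.1 and 96.7 CPM. Cdkn1a, the cell cycle inhibitor p21, differed by -0.36 ± 0.18 (SE) and by -0.13 without EV-depleted replicate 3, its highest library. Cdkn2a was below the level needed for the model, at 0.052 to 0.146 CPM against 0.0765 to 0.412 CPM (two-sided exact permutation p = 0.83).

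Of 23 collagen and matrix genes, 20 had a higher mean with intact serum, none at an unadjusted p under 0.05, and the median was 0.21. EV-depleted replicate 3 had the lowest level at -0.81 and without it the median was -0.05. Col1a1, the chief fibrillar collagen, stood at 92.3, 36.8 and 71.4 CPM against 120, 77.7, 124 and 55.9 CPM. Macrophage genes (14 of 19 higher by mean, median 0.14) likewise had -0.48 in EV-depleted replicate 3, beside -0.63 in intact replicate 4, and their median without EV-depleted replicate 3 was -0.05. Antigen presentation genes had a median of 0.45 over 7 genes, with levels of -0.15, -0.15 and -0.22 against 0.39, 0.13, 0.64 and -0.64. That median ran from 0.24 without intact replicate 3 to 0.76 without intact replicate 4. Tendon genes had a median of 0.39 over 11 genes, and of 0.17 without EV-depleted replicate 3. Cd74, the class II invariant chain, stood at 29.2 to 42.3 CPM against 26.8 to 85.9 CPM.

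Red cell genes had a median of -0.71 over 6 genes, 3 of them lower at an unadjusted p under 0.05 (3.44% of all tested genes). Without intact replicate 1 the median was -0.39. Their level was 0.32, 0.36 and 0.33 with EV-depleted serum and -0.92, -0.24, 0.24 and -0.09 with intact serum. Hbb-bs, the beta globin, stood at 106, 114 and 143 CPM against 43.5, 64.3, 108 and 69.2 CPM, so intact replicate 3 reached the EV-depleted range. The globins mark blood held in the muscle, and whether its amount bears on the other differences was not tested. Schwann cell genes had a median of -0.36 over 12 genes and -0.07 without EV-depleted replicate 4, which had the highest level at 0.71. Endothelial genes had a median of -0.06 over 16 genes, 11 lower and 5 higher by mean. Of these, 2 were lower at an unadjusted p under 0.05 (Cldn5 and Egfl7), beside 3.44% of all tested genes. They ran from -0.50 for Cldn5 to 0.41 for Vwf, the clotting factor carrier, and the junction protein Cldn5 stood at 13.9, 17.6 and 12.8 CPM against 12.2, 8.51, 10.3 and 9.35 CPM. Adipocyte genes had a median of -0.02, and Adipoq, the adipocyte hormone, ranged from 4.33 to 19.4 CPM against 2.89 to 22 CPM.

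**Figure D5:**
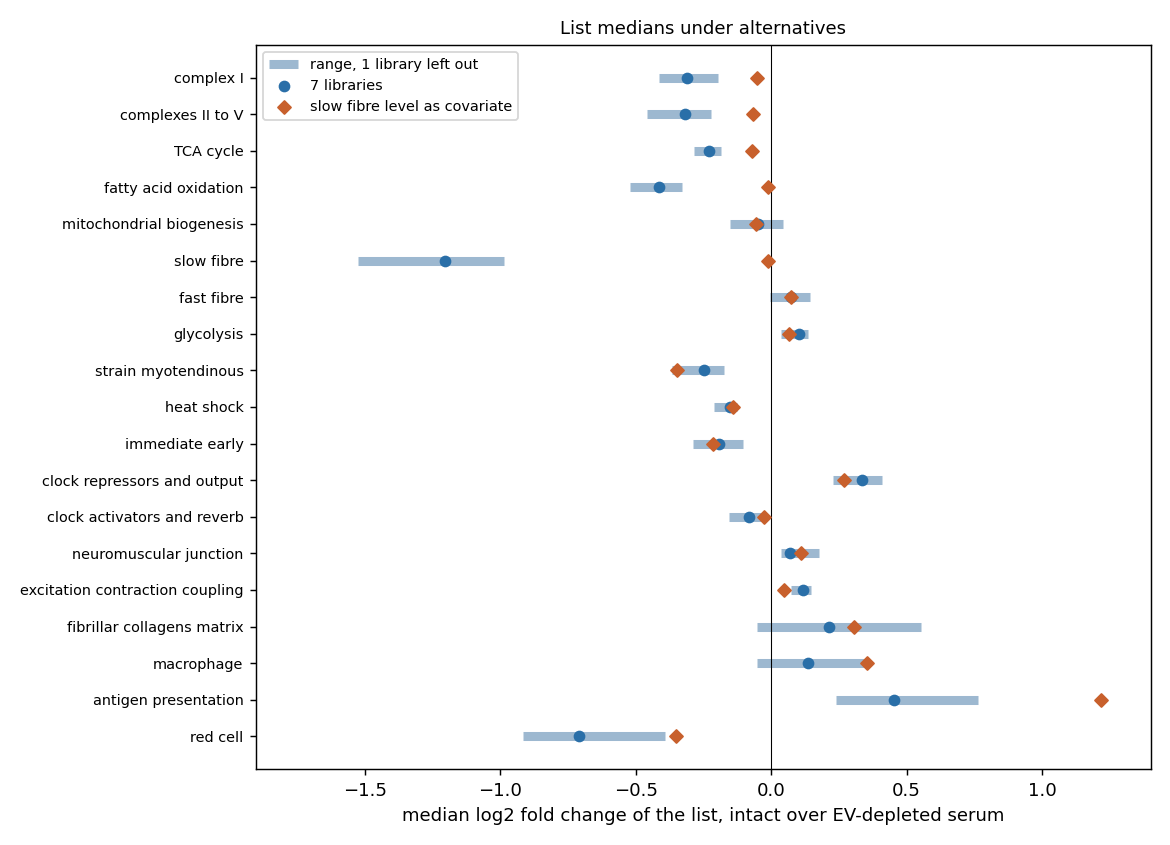
Median log2 fold change, intact over EV-depleted serum, of each gene list with all 7 libraries (blue circle), over the range when 1 library at a time was left out (bar) and with the slow fibre level as a covariate (orange diamond). The oxidative medians lie between -0.41 and -0.23 with 7 libraries and between -0.07 and -0.01 with the covariate. These medians and those of the strain, heat shock and clock repressor lists stay on their side of 0 in all of these fits. The slow fibre list lies near 0 with the covariate by construction.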

How the data were processed

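RNA was sequenced from mouse tibialis anterior; the tools named in the submitters' processing notes are STAR, FastQC and DESeq2, on mm10, with no versions or roles. The deposited CPM values, read from the values themselves, sum to 1e+06 per library and carry an added 0.0001. The authors' deposited TPM values are scaled by the genomic span of each gene and served as an alternative, as log2(TPM + 1). That scale understates the change of genes with low TPM, such as those of long span. Low CPM values were whole reads within 0.1 for 76.4% to 78.8% in the 7 libraries, too few to rebuild counts, so no count model was fitted. The small number of libraries, 3 and 4 per group, limits precision.

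Genes with 1 CPM or more in 3 or more of the 7 libraries were kept (5446 removed). Values were analysed as log2(CPM + 1), pseudocount 1, with limma 3.58.1 in R 4.3.3 (group only, eBayes with trend, two-sided, Benjamini-Hochberg over all genes, threshold 0.05). For genes under that level, CPM was compared with an exact permutation test. The steps were tested on simulated data. Named were the 12 smallest p in each direction (none passed; predicted genes left out, and 1 of the higher is not reported here), up to 4 members per list with the smallest p, and a fixed set of muscle, clock and ageing genes; Cilp, Hspa5, Hsf1, Chrna1, Chrne, Cry1, Ciart and Tef were added after their values were seen. The comparison, the 43 gene lists and the named genes were chosen with earlier results of these data known. A list level is the mean of its members' log2 values, each centred over the 7 libraries. Positions are the deposited mm10 ones with the end minus 1, checked against GENCODE M21 (99.4% of 17893 shared symbols had the same start). Alternatives were 20 other settings, including each library left out. Figures were drawn with matplotlib 3.10.9 in Python 3.11.15.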

Additional observations from a re-analysis of the deposited data

Results flagged for a closer look

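Of 122 groups of 4 intact-serum values examined for a library far from the other 3, 8 had one; chance alone gives about 1 in 20. Intact replicate 3 had the highest Igfn1 level, 50.0 CPM beside 32.1 CPM for the next, which is still below every EV-depleted library. That replicate also had the highest level of the embryonic and regeneration list (0.74, next -0.18) and of the strain list (-0.11, next -0.21). Intact replicate 4 had the lowest Tfam level, 28.4 CPM with 33.8 CPM next, the lowest adipocyte list level (-0.98, next 0.25) and the highest Itga7 level, 96.7 CPM with 93.6 CPM next. Intact replicate 1 had the highest endoplasmic reticulum stress level (0.24, next -0.08). Intact replicate 2 had the highest Cdkn2a level, 0.412 CPM with 0.104 CPM next, which at this depth is a small number of reads.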

How the results depend on the processing

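With 3 and 4 libraries per group, single-gene differences under about 1.27-fold were mostly not detectable even before adjustment over all genes. Larger ones also failed to pass after it. limma called 0 genes in 17 of the 20 alternatives: other pseudocounts, filters, scalings and eBayes settings, all 11 libraries in the fit, TPM values, the replicate block and 6 of the 7 fits that leave out a library. Library weights gave 2324, resting on EV-depleted replicate 2. The slow fibre covariate gave 1 (Iigp1, an interferon-induced GTPase named after its value was seen). Leaving out 1 library gave 0 to 1, the 1 being Otud1 without EV-depleted replicate 4. With the replicate number as a block, limma called 0 genes and 616 had an unadjusted p under 0.05. Its smallest adjusted p was 0.176, beside 0.516 in the main fit. Same-numbered libraries deviated together with correlations of 0.0758, 0.303 and 0.0911. Those of differently numbered libraries ran from -0.401 to 0.205. The same-numbered ones were not all over 0.1, so the numbers were not taken as pairs. So few correlations cannot show that pairs are absent. The block in effect leaves out intact replicate 1, whose number no EV-depleted library shares. All 23 genes chosen by p kept the sign of their difference in all 20 alternatives, as did 46 of the other 54 named genes in the fit and 19 of 42 lists. These alternatives share libraries and are not independent.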

Other observations

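Genes of vesicle formation and release in the recipient muscle stood close to 0. Of 22 tested (tetraspanins, ESCRT sorting proteins and Rab GTPases among them), 9 had a higher and 13 a lower mean with intact serum, none at an unadjusted p under 0.05, and the median was -0.02. These are transcripts of the muscle and say nothing of vesicles in the injected serum. Proteasome genes had a median of -0.11 over 27 genes, and cytosolic ribosomal protein genes -0.11 over 50. The ribosomal level was 0.52 in EV-depleted replicate 3 and -0.30 in EV-depleted replicate 4, so that the median was 0.10 without the first and -0.25 without the second.

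Interferon-induced genes had a median of 0.14 over 19 genes, and their level within the intact group ran from -0.39 in replicate 4 to 0.49 in replicate 3. Excitation-contraction coupling genes had a median of 0.12 over 18 genes. Ryr1, the calcium release channel, stood at 3823, 3294 and 4943 CPM with EV-depleted serum and at 4790, 5394, 4373 and 5398 CPM with intact serum, and the groups overlapped. Igkc, an immunoglobulin light chain, ranged from 0.96 to 3.05 CPM against 0.613 to 9.69 CPM, while 10 of the 12 B and plasma cell genes were below the level needed for the model.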
